A study of Mus musculus with 6 samples.

Results

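The platelet-derived growth factor (PDGF) ligands and receptors were followed in single-nucleus RNA sequencing of mouse cortical lesions. The group holds 6 genes, of 32285 features counted: the 4 ligand genes Pdgfa, Pdgfb, Pdgfc and Pdgfd and the 2 receptor genes Pdgfra and Pdgfrb. They were listed by name as a gene family, with no threshold on a measured value. The lesions were made by photothrombosis, in which a light-activated dye clots the vessels of a patch of cortex. Nuclei came from lesions of 3 conditions, taken 7 or 21 days after the injury (dpi, days post-injury). Ctrl mice had a wild-type genotype and no treatment entry. ADWA11 mice had a wild-type genotype and received ADWA11, an antibody that blocks the integrin αvβ8, from the day of injury. Tgfbr2-cKO mice carried Col1a2(creER) and Tgfbr2(flox), so that tamoxifen removes part of a TGFβ receptor gene from cells that express the collagen gene Col1a2. The labels give no ages, and the methods give 7 to 21 weeks for mice in general. Each of the 6 libraries pooled dissected lesions of 1 male and 1 female mouse, so every group had 1 library, and no test across libraries was made.

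PDGF ligands are secreted as pairs of chains and signal by bringing together 2 receptor chains of the tyrosine kinase class. PDGF-A and PDGF-C act mainly through PDGFRα, and PDGF-B and PDGF-D mainly through PDGFRβ. PDGF-C and PDGF-D are released in a latent form whose CUB domain must be cut off by proteases. Tissue plasminogen activator can do so for PDGF-C and urokinase for PDGF-D. In the brain, PDGF-B from endothelial cells holds pericytes on vessels through PDGFRβ, and PDGF-A supports oligodendrocyte precursors through PDGFRα. Both receptors also mark fibroblasts of the meninges and of scars.

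The files held 67360 barcodes and 64798965 to 140310354 unique molecular identifiers (UMIs) per library, of which 60854 nuclei were used. Nuclei were clustered without the 6 genes and named from marker lists, as fibroblast-like (12997 nuclei), mural-like (513), endothelial-like (1721), oligodendrocyte precursor-like (OPC-like, 1264) and myeloid-like (22947), besides T cell-like, astrocyte-like, neuron-like and later oligodendrocyte-lineage classes and 6557 unnamed nuclei. All 6 fibroblast markers, all 7 mural markers, all 7 endothelial markers, all 8 OPC markers and all 7 myeloid markers were detected in the class they name in every library. Barcode sequences found in more than 1 library numbered 459. The Tgfbr2-cKO library at 7 dpi held mostly neuron-like nuclei and the fewest fibroblast-like nuclei, 336 against 909 to 4339 in the others. Tgfbr2 itself was not at 0 in fibroblast-like nuclei of the Tgfbr2-cKO libraries: its level was 235 CPM against 318 in Ctrl at 7 dpi and 184 against 222 CPM at 21 dpi. The methods name floxed alleles of different exons and the labels do not say which was used, so a 3′ count of this gene does not check the deletion.

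Levels are given in CPM, the UMIs of a gene per 1000000 non-mitochondrial UMIs of the same class in the same library. Intervals are exact 95% intervals that cover counting error only, not the difference between mice. Values are given for Ctrl, ADWA11 and Tgfbr2-cKO in that order. A level in 1 gene is compared only with the same gene elsewhere, because a 3′ count in nuclei also depends on a gene's span and the spans here run from 19.1 to 210.3 kb. A ratio of at least 2-fold is named as such, which is a rule of size and not a test.

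The 6 genes divided the cell classes between them. Pdgfb and Pdgfd had their highest median level over the 6 libraries in endothelial-like nuclei, Pdgfa and Pdgfrb in mural-like nuclei, Pdgfra in OPC-like nuclei and Pdgfc in myeloid-like nuclei. For Pdgfb, Pdgfd and Pdgfrb the lowest library of the first class lay above the highest library of the second class. The first and second classes overlapped for Pdgfa (mural-like and myeloid-like), Pdgfra (OPC-like and fibroblast-like) and Pdgfc (myeloid-like and the unnamed nuclei).

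**Figure D1:**
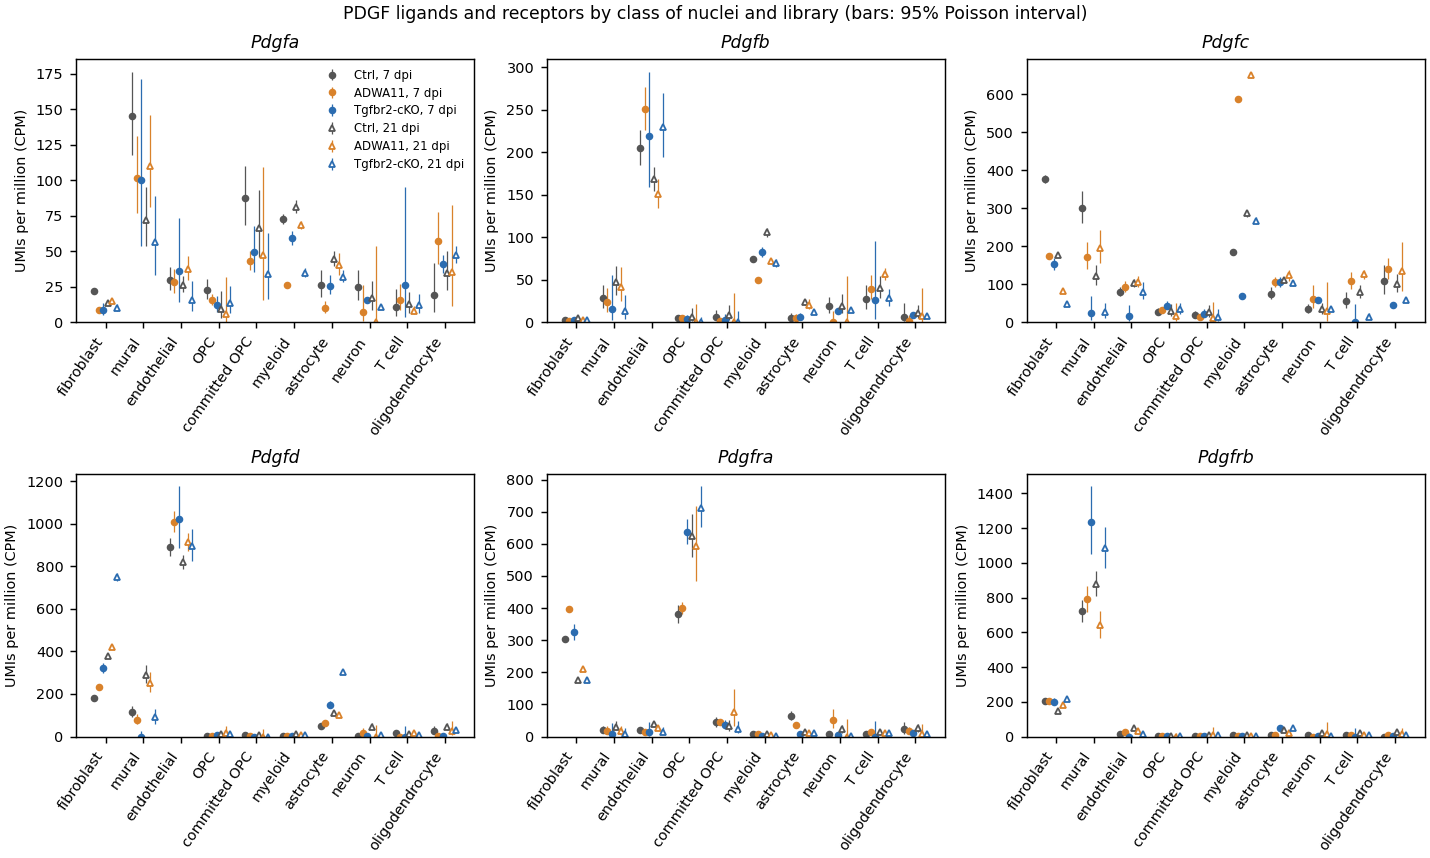
Levels of the 6 genes (CPM, linear axes from 0) in 10 named classes of nuclei, with 1 point per library (colour for condition, filled circles for 7 dpi, open triangles for 21 dpi) and 95% Poisson intervals as bars. Pdgfb and Pdgfd peak in endothelial-like nuclei, Pdgfrb in mural-like nuclei and Pdgfra in OPC-like nuclei in all 6 libraries, while the myeloid-like and fibroblast-like points of Pdgfc lie far apart between conditions.

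Pdgfa encodes the A chain, the classical PDGFRα ligand. It spans chromosome 5 from 138976014 to 138997370 (minus strand, GRCm38, ENSMUSG00000025856). In mural-like nuclei its level was 145, 101 and 100.3 CPM at 7 dpi and 72.0, 110.2 and 56.4 CPM at 21 dpi, on 13 to 99 UMIs per library. In myeloid-like nuclei it was 72.5, 26.4 and 59.1 CPM at 7 dpi and 81.3, 68.6 and 34.9 CPM at 21 dpi. The 7 dpi ADWA11 library was thus the lowest of the 6 in myeloid-like nuclei, and Ctrl was the highest condition on both days. The log2 ratio of ADWA11 to Ctrl in myeloid-like nuclei was -1.46 (-1.57 to -1.35) at 7 dpi and -0.25 (-0.35 to -0.14) at 21 dpi. At 7 dpi, Pdgfa was lower with ADWA11 in 8 of 8 myeloid-like sub-clusters that had at least 20 nuclei in both libraries, with 6 intervals below 0. At 21 dpi it was higher with ADWA11 in 6 of 9, with a median of 0.16 log2 units and 1 interval on each side of 0, so the lower class level of that day was not shared by most sub-clusters. When these sub-clusters were weighted by the makeup of Ctrl, a step added after the data were seen, the ADWA11 ratio was -0.86 at 7 dpi, under the 2-fold rule, and 0.61 at 21 dpi, the other direction. Some large Ctrl sub-clusters had few ADWA11 nuclei, as given for Pdgfc below. The log2 ratio of Tgfbr2-cKO to Ctrl in the same class was -0.29 (-0.44 to -0.15) at 7 dpi and -1.22 (-1.38 to -1.06) at 21 dpi, the latter -0.92 in nuclei called male. Within sub-clusters Tgfbr2-cKO was lower in 4 of 6 at 7 dpi, with a median of -0.19 and 2 intervals below 0. At 21 dpi it was lower in 5 of 6, with a median of -0.48 and 2 intervals below 0.

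Committed oligodendrocyte precursor-like nuclei, a step later than OPCs in the lineage, held Pdgfa at 34.2 to 87.2 CPM, above the 5.66 to 22.4 CPM of OPC-like nuclei, whose Pdgfra makes them responders to the A chain. In fibroblast-like nuclei Pdgfa was low: 21.8, 8.46 and 8.41 CPM at 7 dpi and 13.4, 14.7 and 10.1 CPM at 21 dpi. The 7 dpi Ctrl library stood above the rest, with log2 ratios of -1.37 (-1.62 to -1.12) for ADWA11 and -1.38 (-2.15 to -0.70) for Tgfbr2-cKO, the second on 18 UMIs. With the filter on nuclei set over all libraries pooled, the Tgfbr2-cKO ratio was -0.57 and no longer 2-fold. Between 7 and 21 dpi the level went down in Ctrl (-0.71) and up in ADWA11 (0.80). Pdgfa was lower with ADWA11 at 7 dpi in 7 of 7 fibroblast-like sub-clusters and higher at 21 dpi in 3 of 4.

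Pdgfb encodes the B chain, the endothelial signal that recruits pericytes. It spans chromosome 15 from 79995874 to 80014977 (minus strand, ENSMUSG00000000489). Endothelial-like nuclei held it at 205, 251 and 219 CPM at 7 dpi and 168, 151 and 229.9 CPM at 21 dpi, and between 44.1% and 65.2% of these nuclei had at least 1 UMI. Condition ratios stayed within 0.45 log2 units of Ctrl in this class: 0.29 (0.09 to 0.50) and -0.16 (-0.36 to 0.05) for ADWA11 at 7 and 21 dpi, and 0.10 (-0.39 to 0.55) and 0.45 (0.18 to 0.71) for Tgfbr2-cKO. The second class for Pdgfb was myeloid-like, with 74.8, 49.9 and 82.1 CPM at 7 dpi and 105.8, 71.5 and 69.6 CPM at 21 dpi. ADWA11 was below Ctrl there by a similar step on both days, -0.58 (-0.67 to -0.49) and -0.57 (-0.66 to -0.47). Because myeloid-like nuclei were so many, they held 54.2% to 78.4% of all Pdgfb UMIs in 5 of the libraries and 34.0% in the neuron-rich Tgfbr2-cKO library at 7 dpi, against 2.04% to 19.9% for endothelial-like nuclei. In fibroblast-like nuclei Pdgfb was at 1.44 to 4.63 CPM with a UMI in 1.18% to 2.12% of nuclei. OPC-like nuclei, used here as a class that should lack this ligand, gave 0 to 5.54 CPM, and the fibroblast-like levels lay within that range. It rested on few UMIs: at 21 dpi OPC-like nuclei were 76, 20 and 83, with 0 Pdgfb UMIs in ADWA11 and Tgfbr2-cKO. It therefore cannot tell whether the fibroblast-like level was background. Myofibroblast-like nuclei of Ctrl at 21 dpi stood above that range, with 47.0 CPM (33.3 to 64.5) on 38 UMIs in 8 of 85 nuclei, against 3.13 CPM at 7 dpi. These 38 were among the 145 Pdgfb UMIs of all fibroblast-like nuclei in that library.

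Pdgfc encodes the first of the latent, CUB-domain ligands. It spans chromosome 3 from 81036416 to 81214040 (plus strand, ENSMUSG00000028019). In fibroblast-like nuclei its level was 377 (368 to 387), 174 (169 to 179) and 152 (136 to 170) CPM at 7 dpi and 178 (173 to 182), 80.8 (77.1 to 84.5) and 46.8 (42.2 to 51.8) CPM at 21 dpi. Ctrl at 7 dpi was the highest library, both other conditions were below Ctrl on both days, and every condition was lower at 21 than at 7 dpi. The log2 ratio to Ctrl was -1.12 (-1.17 to -1.06) and -1.14 (-1.21 to -1.06) for ADWA11 and -1.31 (-1.47 to -1.15) and -1.92 (-2.08 to -1.77) for Tgfbr2-cKO, at 7 and 21 dpi. Of 11 other ways of processing, 4 put the ADWA11 ratio under 2-fold at 7 dpi and 6 at 21 dpi, all with the same direction. A Pdgfc UMI was present in 60.2%, 45.2% and 26.8% of fibroblast-like nuclei on the earlier day and in 39.9%, 27.2% and 18.6% on the later one.

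Myeloid-like nuclei gave the opposite order for ADWA11. Pdgfc was at 184 (179 to 190), 589 (581.9 to 596) and 68.2 (62.8 to 73.9) CPM at 7 dpi and 287 (278 to 296), 651 (643 to 660) and 267 (258 to 276) CPM at 21 dpi. The ADWA11 library was the highest on both days, with log2 ratios to Ctrl of 1.68 (1.63 to 1.72) and 1.18 (1.13 to 1.23). Of all genes tested in myeloid-like nuclei, 7.20% were at least 2-fold higher in ADWA11 at 7 dpi and 5.16% at 21 dpi, and Pdgfc was the only member among them on either day. The share of myeloid-like nuclei with a Pdgfc UMI was 33.0% in Ctrl and 73.7% in ADWA11 at 7 dpi, and 41.5% and 73.6% at 21 dpi. Tgfbr2-cKO was below Ctrl at 7 dpi (-1.44, -1.56 to -1.31) and near it at 21 dpi (-0.11, -0.17 to -0.04). Within sub-clusters it was below Ctrl in 5 of 6 at 7 dpi, with 4 intervals below 0 and 1 above. At 21 dpi the sub-clusters differed, from -1.21 to 1.60, with 3 intervals above 0 and 2 below. The summed level of 6 fibroblast markers in myeloid-like nuclei was lower in ADWA11 than in Ctrl, 312 against 592 CPM at 7 dpi and 476 against 939 CPM at 21 dpi. It was 42.7 and 54.1 CPM in the Tgfbr2-cKO libraries. Its part in the ADWA11 differences and in the Tgfbr2-cKO difference at 7 dpi was not tested.

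**Figure D2:**
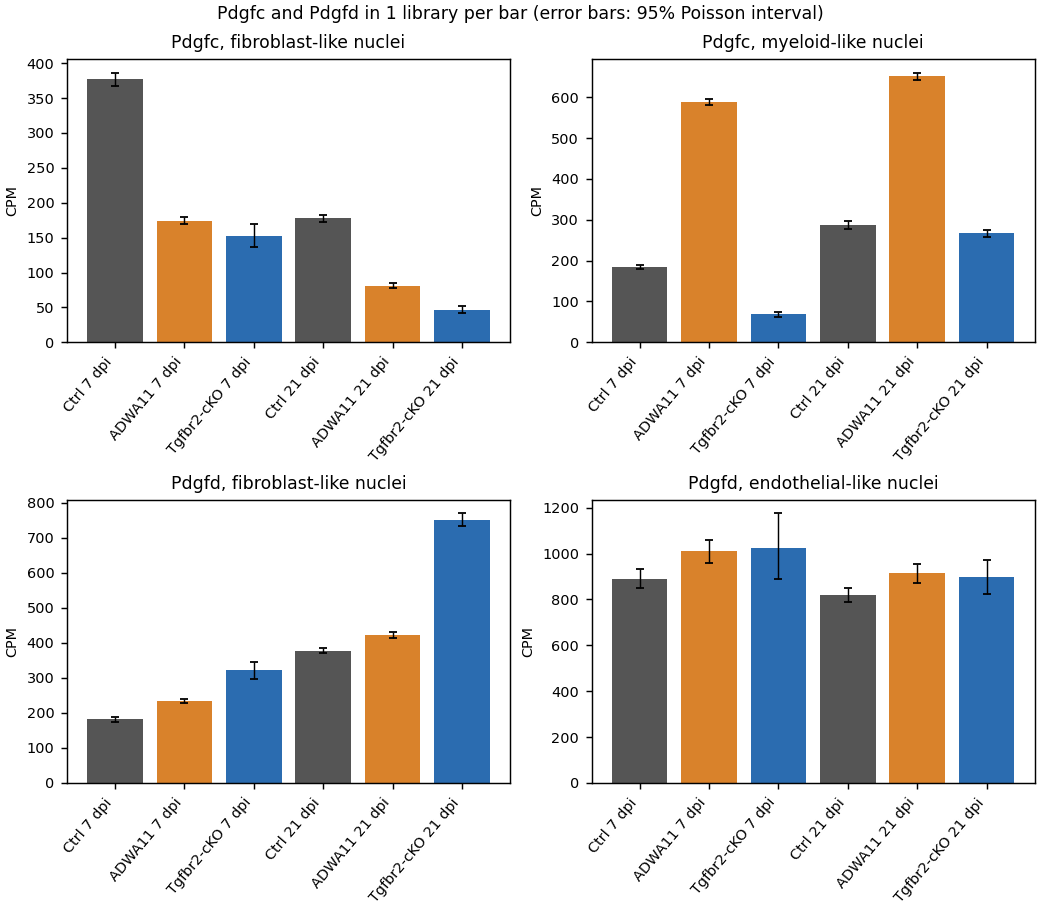
Levels (CPM, bars from 0) of Pdgfc in fibroblast-like and myeloid-like nuclei and of Pdgfd in fibroblast-like and endothelial-like nuclei, with 1 bar per library and 95% Poisson intervals. In fibroblast-like nuclei Ctrl has the highest Pdgfc and the lowest Pdgfd bar of each day, whereas ADWA11 has the highest Pdgfc bar in myeloid-like nuclei and the endothelial-like Pdgfd bars stay between 819 and 1024 CPM.

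The myeloid-like class was made of different sub-clusters in different libraries. Microglia-like nuclei were 1594 of 4101 in Ctrl at 7 dpi and 1173 of 3026 at 21 dpi, but 71 of 5780 and 60 of 5617 in ADWA11. In Tgfbr2-cKO they were 1681 of 2252 at 7 dpi and 1424 of 2171 at 21 dpi. The name rests on raised P2ry12, Sall1, Tmem119, Siglech and Gpr34, so microglia low in these genes would lie in other sub-clusters. The paper reports a dysmature myeloid signature with ADWA11 and still counts disease-associated microglia there. The numbers above are thus not a count of all microglia. The largest ADWA11 sub-cluster was an unnamed one led by Hpgd and Dlc1 at 7 dpi (2546 nuclei, 44.0%) and one led by Ciita and H2-Eb1, genes of antigen presentation, at 21 dpi (3426 nuclei, 61.0%). Border macrophage-like nuclei, the perivascular and meningeal macrophages, held much Pdgfc in every library: 792, 916 and 530.5 CPM at 7 dpi and 624, 712 and 794 CPM at 21 dpi. Microglia-like nuclei held 61.8, 179 and 24.7 CPM at 7 dpi and 102, 235 and 129 CPM at 21 dpi, so the lowest border macrophage-like library was above the highest microglia-like one. At 7 dpi Pdgfc was higher with ADWA11 in 8 of 8 myeloid-like sub-clusters, by 0.21 to 2.16 log2 units, and all 8 intervals lay above 0. At 21 dpi it was higher in 7 of 9 sub-clusters, with 5 intervals above 0 and 1 below. When the ADWA11 sub-clusters with at least 20 nuclei in both libraries were weighted by the makeup of Ctrl, a step added after the data were seen, the log2 ratio was 0.97 at 7 dpi and 0.40 at 21 dpi, both under the 2-fold rule. This weighting let 71 and 60 microglia-like ADWA11 nuclei stand for 1594 and 1173 in Ctrl. One sub-cluster of 2514 nuclei, 1275 of them in Ctrl at 7 dpi, was led by genes such as Ednra and Bnc2 that fibroblasts also express. Without it, again a step added later, the ADWA11 ratios were 2.20 and 1.29, and that of Tgfbr2-cKO to Ctrl at 7 dpi was -0.97, under the 2-fold rule. Weighted to the makeup of Ctrl, that Tgfbr2-cKO ratio was -0.28.

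In fibroblast-like nuclei the makeup also differed. Myofibroblast-like nuclei were 1140 of 2000 in Ctrl and 1228 of 2544 in ADWA11 at 7 dpi, an unnamed sub-cluster led by Slc47a2 and Slc47a1 held 1884 of 4339 Ctrl and 2226 of 2869 ADWA11 nuclei at 21 dpi, and arachnoid-like nuclei were 423 of 909 in Tgfbr2-cKO at 21 dpi. At 21 dpi an unnamed sub-cluster led by Gabrg3 and Ebf3 held 306 of 909 Tgfbr2-cKO but 1 of 4339 Ctrl nuclei, with Pdgfc at 16.0 CPM in Tgfbr2-cKO. Late inner-like nuclei were 1412 in Ctrl, with Pdgfc at 222 CPM, but 2 in Tgfbr2-cKO. Neither sub-cluster could enter the ratios within sub-clusters or the weighted ratio of Tgfbr2-cKO at 21 dpi. Among myofibroblast-like nuclei at 7 dpi Pdgfc was at 446, 201 and 209 CPM. Leptomeningeal-like nuclei held 185, 65.6 and 99.9 CPM at 7 dpi and 32.0, 23.7 and 46.8 CPM at 21 dpi. The level in Ctrl was thus the highest of the 3 conditions in both subtypes at 7 dpi. Pdgfc was lower with ADWA11 in 7 of 7 sub-clusters at 7 dpi, with 5 intervals below 0, and in 4 of 4 at 21 dpi, with 3 intervals below 0. With Tgfbr2-cKO it was lower in 4 of 4 sub-clusters at 7 dpi, with 3 intervals below 0. At 21 dpi only 1 of 3 intervals lay below 0, that of the sub-cluster led by Slc47a2 (-1.49, -1.91 to -1.09). The arachnoid-like ratio was -0.01 (-0.27 to 0.24) and the leptomeningeal-like ratio 0.55 (-0.23 to 1.30), so the class ratio of -1.92 was not shared by these 2 subtypes. Weighted in the same way to the makeup of Ctrl, the ratios to Ctrl were -1.14 and -0.76 for ADWA11 and -1.07 and -1.17 for Tgfbr2-cKO, at 7 and 21 dpi. The ratio of 21 to 7 dpi in Ctrl, -1.09 for the whole class, was -0.02 when the 21 dpi sub-clusters were weighted to the makeup at 7 dpi. Sub-cluster by sub-cluster, Pdgfc in Ctrl was lower at 21 dpi in 4 of 5, with a median of -0.48, 3 intervals below 0 and 1 above.

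**Figure D3:**
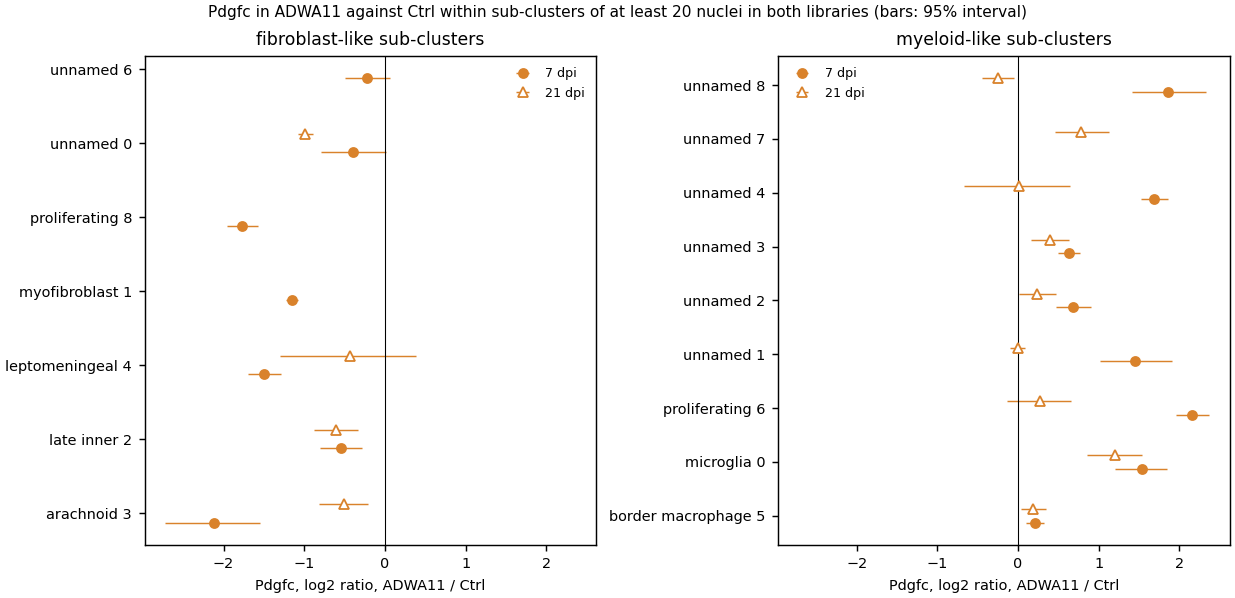
Log2 ratio of Pdgfc in ADWA11 to Ctrl (x axis) within each fibroblast-like (left) and myeloid-like (right) sub-cluster that had at least 20 nuclei in both libraries, at 7 dpi (filled circles) and 21 dpi (open triangles), with 95% intervals. All 7 fibroblast-like points at 7 dpi and all 4 at 21 dpi lie below 0, all 8 myeloid-like points at 7 dpi lie above 0, and 7 of the 9 at 21 dpi do.

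The class that held most Pdgfc RNA differed between conditions. At 7 dpi, 51.9%, 14.0% and 4.59% of the Pdgfc UMIs lay in fibroblast-like nuclei, and at 21 dpi 45.6%, 7.36% and 6.91% did. The part in myeloid-like nuclei was 38.0%, 81.3% and 8.37% on the earlier day and 32.9%, 82.6% and 60.8% on the later day. These shares follow the number of nuclei in a class as well as the level in each: neuron-like nuclei held 79.4% of the Pdgfc UMIs in the Tgfbr2-cKO library at 7 dpi at a level of only 56.8 CPM. Over the whole library Pdgfc was at 229, 363 and 59.2 CPM at 7 dpi and 183, 349 and 105 CPM at 21 dpi.

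**Figure D4:**
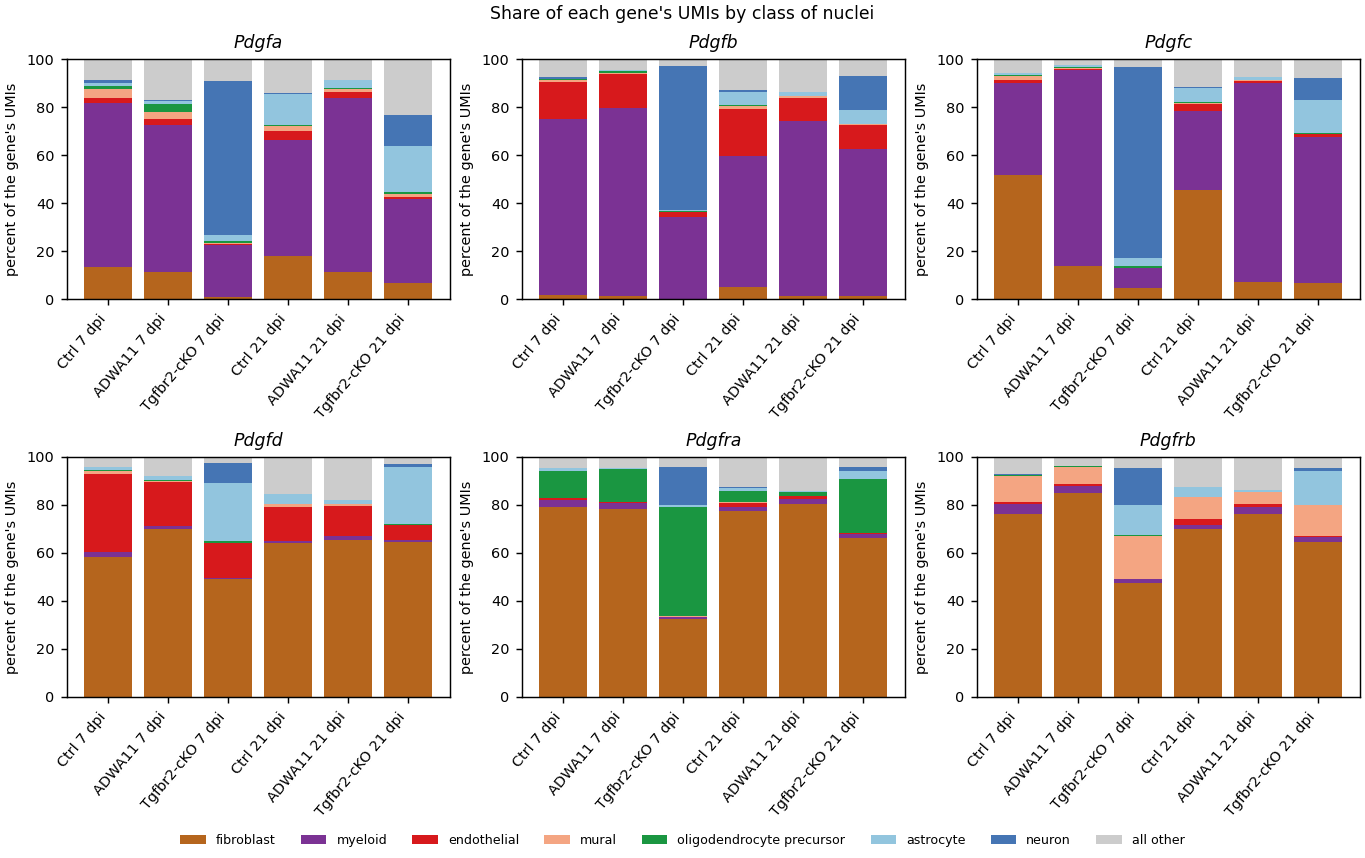
Percent of each gene's UMIs in a library that lay in each class of nuclei (stacked bars adding to 100%, 1 bar per library, all other classes in grey). For Pdgfc the myeloid-like share is 81.3% and 82.6% in the ADWA11 libraries against 38.0% and 32.9% in Ctrl, and the neuron-like share is large only in the Tgfbr2-cKO library at 7 dpi.

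Mural-like nuclei gave Pdgfc values of 300.4, 173 and 23.2 CPM at 7 dpi and 122, 195 and 25.1 CPM at 21 dpi, on 3 to 205 UMIs. The Ctrl value at 7 dpi rested on few nuclei, since 5 of them held 71.2% of its UMIs and nuclei called female gave 73.0 CPM against 745 CPM in nuclei called male. In ADWA11 at 7 dpi 5 nuclei held 66.0% of the UMIs. The summed fibroblast markers of mural-like nuclei were at 2119, 2070 and 448 CPM at 7 dpi and 2770, 2628 and 583 CPM at 21 dpi. They were low together with Pdgfc in both Tgfbr2-cKO libraries, and their part in the Pdgfc values was not tested.

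Pdgfd encodes the second latent ligand and acts mainly on PDGFRβ. It spans chromosome 9 from 6168584 to 6378850 (plus strand, ENSMUSG00000032006). Endothelial-like nuclei held it at 890.3, 1009 and 1024 CPM at 7 dpi and 819, 914 and 896 CPM at 21 dpi, and no condition differed from Ctrl by more than 0.20 log2 units. The Tgfbr2-cKO library at 7 dpi had 37 endothelial-like nuclei, and the 5 with most UMIs of the gene held 52.2% of the 201 for Pdgfd and 46.5% of the 43 for Pdgfb. In fibroblast-like nuclei the levels were 182 (175 to 188), 234 (228 to 240) and 321 (297 to 346) CPM at 7 dpi and 378 (371 to 385), 421 (413 to 430) and 751 (732 to 770) CPM at 21 dpi. The order Ctrl, ADWA11, Tgfbr2-cKO was the same on both days, the reverse of that of Pdgfc, and each condition was higher at 21 than at 7 dpi. Log2 ratios to Ctrl were 0.36 (0.30 to 0.43) and 0.16 (0.12 to 0.20) for ADWA11 and 0.82 (0.70 to 0.94) and 0.99 (0.95 to 1.04) for Tgfbr2-cKO, all under the 2-fold rule. From 7 to 21 dpi the log2 ratio was 1.06 (1.00 to 1.12) in Ctrl, 0.85 (0.81 to 0.90) in ADWA11 and 1.23 (1.11 to 1.34) in Tgfbr2-cKO. The share of fibroblast-like nuclei with a Pdgfd UMI was 37.6%, 48.3% and 53.3% at 7 dpi and 58.1%, 66.6% and 82.1% at 21 dpi.

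Pdgfd also varied between fibroblast-like sub-clusters. At 7 dpi myofibroblast-like nuclei held 121, 182 and 251 CPM, whereas leptomeningeal-like nuclei held 329, 335 and 368 CPM. At 21 dpi the unnamed sub-cluster led by Slc47a2 held 492, 419 and 1327 CPM and leptomeningeal-like nuclei held 343, 335 and 696 CPM. In Tgfbr2-cKO at 7 dpi Pdgfd was above Ctrl in 3 of 4 sub-clusters, with 2 intervals above 0, whereas arachnoid-like nuclei were below it by -1.01 log2 units (-1.57 to -0.48). At 21 dpi it was above Ctrl in 3 of 3, by 0.49 to 1.43 log2 units. In ADWA11 it was above Ctrl in 5 of 7 sub-clusters at 7 dpi and in 1 of 4 at 21 dpi. Within sub-clusters of Ctrl the change from 7 to 21 dpi had a median of 0.09 log2 units over 5 sub-clusters, against 1.06 for the class as a whole. In ADWA11 the median was -0.11 over 4 sub-clusters, with 3 lower at 21 dpi, 2 intervals below 0 and 1 above. The higher class level of ADWA11 at 21 dpi was thus not shared by most sub-clusters. In Tgfbr2-cKO the median was 0.92 over 3 sub-clusters, with all 3 intervals above 0.

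Astrocyte-like nuclei, which border the lesion, also held Pdgfd: 51.4, 61.9 and 149 CPM at 7 dpi and 111, 101 and 306 CPM at 21 dpi. Tgfbr2-cKO was the highest condition on both days, with log2 ratios to Ctrl of 1.53 (1.14 to 1.94) and 1.46 (1.34 to 1.58). The summed astrocyte markers in this class were also higher in Tgfbr2-cKO, at 10028 against 2920.1 CPM at 7 dpi and 9295 against 4847 CPM at 21 dpi, and their part in the Pdgfd difference was not tested. In mural-like nuclei Pdgfd was at 117, 78.3 and 0 CPM at 7 dpi and 291, 253 and 90.9 CPM at 21 dpi. The 0 came from 40 nuclei and allows a level of up to 23.2 CPM (3 counts). The summed fibroblast markers of mural-like nuclei, given above, had the same order of conditions on each day and were higher at 21 dpi in each condition, and their part in these Pdgfd values was not tested.

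The sequences around the start sites of Pdgfc and Pdgfd are shown because these were the 2 ligands with opposite orders of condition in fibroblast-like nuclei. RefSeq windows (GRCm38.p6, 250 bases before to 50 after the start, plus strand, printed 5′ to 3′) were held for 4 of the 6 members, and capitals mark the SMAD box CAGAC or GTCTG, the short element that TGFβ-activated SMAD proteins can bind. The windows are chr3:81036166-81036465 for Pdgfc and chr9:6168236-6168535 for Pdgfd. The RefSeq start of Pdgfd lies upstream of the start printed above, which comes from another annotation, so its window ends before that position.
Pdgfc: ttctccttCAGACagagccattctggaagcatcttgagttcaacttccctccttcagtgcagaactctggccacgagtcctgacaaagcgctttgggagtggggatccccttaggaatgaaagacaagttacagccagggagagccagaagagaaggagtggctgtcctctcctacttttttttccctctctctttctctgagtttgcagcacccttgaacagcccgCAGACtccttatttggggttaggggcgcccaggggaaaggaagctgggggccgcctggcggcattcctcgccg
Pdgfd: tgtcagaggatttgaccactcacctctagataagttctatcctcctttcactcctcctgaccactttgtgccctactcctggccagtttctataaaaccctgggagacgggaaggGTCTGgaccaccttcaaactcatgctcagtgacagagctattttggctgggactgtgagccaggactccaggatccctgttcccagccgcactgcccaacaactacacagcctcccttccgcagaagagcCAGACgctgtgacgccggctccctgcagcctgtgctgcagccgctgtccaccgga
Each window held 2 SMAD boxes, searched on both strands. A box of these letters was found in 49.6% of all 32851 windows. The AP-1 element TGACTCA or TGAGTCA was found in 5.20% of all windows and in neither of these. A match is a description of the letters only.

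Pdgfra encodes the α receptor, the standard marker of OPCs and a marker of many fibroblasts. It spans chromosome 5 from 75152292 to 75198215 (plus strand, ENSMUSG00000029231). In OPC-like nuclei it was at 380.5, 399 and 637 CPM at 7 dpi and 623, 594 and 713 CPM at 21 dpi, and 64.3% to 95% of these nuclei had a UMI. Tgfbr2-cKO was above Ctrl at 7 dpi by 0.74 log2 units (0.60 to 0.89). The OPC-like class was again mixed: 1 sub-cluster held Pdgfra at 607 to 822 CPM in every library and was 113 of 312 OPC-like nuclei in Tgfbr2-cKO at 7 dpi but 7 of 311 in Ctrl. In that sub-cluster Ctrl was at 789 CPM on 7 nuclei and Tgfbr2-cKO at 796 CPM at 7 dpi. The largest sub-cluster held 356 (327 to 388), 394 (369 to 421) and 445 (394 to 502) CPM at 7 dpi. Another, led by genes such as Depdc1a and Kif4, held 417 (350 to 493), 392 (365 to 421) and 674 (581 to 779) CPM. Tgfbr2-cKO was thus the highest condition in both of these as well. In committed oligodendrocyte precursor-like nuclei the level was 23.9 to 75.2 CPM, below every OPC-like value.

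In fibroblast-like nuclei Pdgfra was at 302, 397 and 326 CPM at 7 dpi and 176, 211 and 177 CPM at 21 dpi. Every condition was lower at 21 dpi, by -0.78 (-0.83 to -0.72), -0.91 (-0.96 to -0.86) and -0.88 (-1.01 to -0.75) log2 units, and ADWA11 was the highest condition on both days. Leptomeningeal-like nuclei held far more than the other fibroblast-like subtypes that had a name, at 669, 954 and 619 CPM at 7 dpi and 878, 735 and 488 CPM at 21 dpi. Myofibroblast-like nuclei held 213, 246 and 184 CPM at 7 dpi. Within sub-clusters the 21 dpi level was higher in 3 of 5 in Ctrl and in 2 of 4 in ADWA11, so the lower class level was not shared by all of them. ADWA11 was above Ctrl in 6 of 7 sub-clusters at 7 dpi and in 2 of 4 at 21 dpi. Tgfbr2-cKO was below Ctrl in 3 of 4 at 7 dpi, where every interval included 0. At 21 dpi it was below Ctrl in 3 of 3, by -0.85 to -0.44 log2 units with every interval below 0, though the class levels were alike. In myeloid-like nuclei, which should lack the receptor, Pdgfra was at 2.52 to 8.22 CPM with a UMI in 0.977% to 5.03% of nuclei, at a median depth of 3360 to 6766 UMIs per nucleus. In fibroblast-like nuclei, at 5720 to 9538.5 UMIs, 49.2% to 68.7% had one.

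Pdgfrb encodes the β receptor, a defining gene of pericytes and smooth muscle. It spans chromosome 18 from 61045150 to 61085061 (plus strand, ENSMUSG00000024620). In mural-like nuclei it was at 721, 790.2 and 1235 CPM at 7 dpi and 881, 643 and 1084 CPM at 21 dpi, with a UMI in 85.0% to 97.3% of nuclei. Tgfbr2-cKO was the highest condition on both days, by 0.78 (0.51 to 1.04) and 0.30 (0.10 to 0.49) log2 units over Ctrl, on 40 and 66 nuclei. ADWA11 was near Ctrl at 7 dpi (0.13, -0.06 to 0.32) and below it at 21 dpi (-0.45, -0.66 to -0.25). Fibroblast-like nuclei held Pdgfrb at 207, 204 and 201 CPM at 7 dpi and 146, 183 and 215 CPM at 21 dpi. The widest ratio was that of Tgfbr2-cKO to Ctrl at 21 dpi, 0.55 (0.47 to 0.63). Within 3 sub-clusters it was -0.09, 0.01 and 0.17, with every interval including 0, and weighted to the makeup of Ctrl it was -0.03. From 7 to 21 dpi Pdgfrb was higher in 4 of 5 sub-clusters of Ctrl, with a median of 0.19 and 1 interval below 0. It was higher in 4 of 4 in ADWA11 (median 0.66) and in 3 of 3 in Tgfbr2-cKO (median 1.16). The lower class levels of Ctrl and ADWA11 at 21 dpi were thus not shared by most sub-clusters. ADWA11 was above Ctrl in 4 of 7 sub-clusters at 7 dpi and in 4 of 4 at 21 dpi. Fibroblast-like nuclei held 47.6% to 84.7% of the Pdgfrb UMIs of a library and mural-like nuclei 5.05% to 17.7%.

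Many fibroblast-like nuclei held both receptors. At least 1 UMI of each was found in 39.9%, 48.7% and 31.0% of nuclei at 7 dpi and in 29.96%, 39.0% and 38.8% at 21 dpi. At 7 dpi, Pdgfc was detected less often in nuclei with a Pdgfra UMI than in those without, in 59.3% against 61.8% in Ctrl, 44.3% against 47.2% in ADWA11 and 23.1% against 31.3% in Tgfbr2-cKO. At 21 dpi the order was the other way, with 42.4% against 37.6%, 30.3% against 23.4% and 19.2% against 17.8%. For Pdgfd in nuclei with and without a Pdgfrb UMI the shares at 7 dpi were 38.4% and 36.4% in Ctrl, 48.0% and 48.9% in ADWA11 and 51.2% and 55.2% in Tgfbr2-cKO. On the later day they were 59.1% and 57.0%, 67.3% and 65.4%, and 81.6% and 82.8%. These gaps were not tested, and detection also depends on the depth of a nucleus.

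Counted together in fibroblast-like nuclei, 2 of the 6 members were at least 2-fold lower in Tgfbr2-cKO at 7 dpi (Pdgfa and Pdgfc), where 14.2% of all genes tested passed that fold in either direction, and 2 at 21 dpi (Pdgfb and Pdgfc), where 18.0% did. For ADWA11, 2 were at least 2-fold lower at 7 dpi (Pdgfa and Pdgfc, background 10.1%) and 2 at 21 dpi (Pdgfb and Pdgfc, background 8.26%). The Pdgfb levels behind these counts lay within the range of OPC-like nuclei over the 6 libraries. At 21 dpi, however, OPC-like nuclei of ADWA11 and Tgfbr2-cKO held 0 Pdgfb UMIs in few nuclei. The fibroblast-like level of Ctrl included the 38 UMIs of myofibroblast-like nuclei given above. Without myofibroblast-like nuclei in either library, a step added after the data were seen, Ctrl was at 3.51 CPM and the log2 ratio was -0.65 (-1.46 to 0.07) for Tgfbr2-cKO, no longer 2-fold, and -1.01 (-1.57 to -0.47) for ADWA11, still just past 2-fold. From 7 to 21 dpi, Pdgfc was lower and Pdgfd higher by at least 2-fold in Ctrl (background 21.0%) and in Tgfbr2-cKO (15.8%), and only Pdgfc passed in ADWA11 (20.5%). Counts of 1 or 2 among 6 genes are too few to set apart from these shares.

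A list of 24 further genes of the pathway was read in the same nuclei, and 23 had at least 20 UMIs over the 2 libraries of each contrast. The share past 2-fold in either direction was 13% (3 genes) for Tgfbr2-cKO at 7 dpi, beside 14.2% of all genes tested, and 21.7% (5) at 21 dpi, beside 18.0%. For ADWA11 it was 4.35% (1) on each day, beside 10.1% and 8.26%. These shares do not set the list apart from all genes, so the genes below are given as values only. In Tgfbr2-cKO at 7 dpi, 0 were at least 2-fold higher and 3 lower: Pcsk5, a proprotein convertase (307 against 663 CPM, -1.11), Cspg4, the NG2 proteoglycan that binds PDGF-A (-1.40), and the matrix protein gene Thbs1 (-1.23). At 21 dpi 0 were higher and 5 lower, with Pcsk5 at 202 against 847 CPM (-2.07). Among the others were Sparc, whose product binds PDGF chains (141 against 408 CPM, -1.53), Cspg4 (-1.70) and Lrig1, a damper of receptor tyrosine kinases (-1.19). In ADWA11 only Cspg4 was lower at 7 dpi (-1.48), and only Thbs1 passed at 21 dpi, being higher (1.05). For Tgfbr2-cKO the median log2 ratio over the 23 genes was -0.16 on the earlier and -0.05 on the later day, beside 0.09 and -0.00 over all genes tested. For ADWA11 it was -0.15 and -0.05, beside 0.08 and 0.01. The 6 members had medians of -0.15 and -0.20 in the Tgfbr2-cKO contrasts. Their medians in the ADWA11 contrasts were -0.48 and 0.15.

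From 7 to 21 dpi, Gab1, an adaptor that relays receptor signals, was lower in all 3 conditions, by -1.24, -1.36 and -1.40 log2 units from levels of 416, 370.2 and 373 CPM. Plau, the urokinase gene, whose product can cut latent PDGF-D, was lower in Ctrl (-1.30) and ADWA11 (-1.76), on 30 to 113 UMIs. Thbs1 was higher in ADWA11 (1.52) and Tgfbr2-cKO (1.15), Lrig1 lower in both (-1.16 and -1.05), and Cspg4 lower in Tgfbr2-cKO (-1.18). In all, 0 of the 23 were higher and 3 lower in Ctrl, 1 and 4 in ADWA11, and 1 and 4 in Tgfbr2-cKO. That is 13%, 21.7% and 21.7% of the list, beside 21.0%, 20.5% and 15.8% of all genes tested, too few genes to set apart from these shares.

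The genes whose levels followed each member most closely over 51 sums of a class in a library were found among 12904 genes. These sums share libraries and classes, so the correlations are a description. Pdgfb was followed by Hhex (r = 0.90), Tm6sf1 (0.88) and Lmo2 (0.88), and Pdgfd by Ephb4, Pgm5 and Wwtr1 (each 0.93). Pdgfrb went with Nfatc4 (0.91), Enpep (0.91) and Mrvi1 (0.90), and Pdgfra with Araf (0.80), Prkg2 (0.77) and Eya1 (0.76). For Pdgfc the closest was Gm16000 (0.82), an antisense gene inside the Pdgfc span on the other strand (chromosome 3, 81037408 to 81040437), whose counts may share a source with those of Pdgfc, followed by Pld2 and Anxa4 (each 0.79). Pdgfa had the loosest companions, Zeb2 (0.70), Specc1 (0.68) and Wdfy1 (0.65). Between members the highest correlation was that of Pdgfd and Pdgfrb (0.69), and the lowest was that of Pdgfb and Pdgfra (-0.61).

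Nuclei called female and male give the only view of the spread between the 2 mice of a library. For Pdgfc in fibroblast-like nuclei they gave 403 and 355 CPM in Ctrl, 168 and 178 in ADWA11 and 163 and 156 in Tgfbr2-cKO at 7 dpi. At 21 dpi they gave 189 and 164, 72.8 and 84.2, and 41.1 and 54.1 CPM. Ctrl was above both other conditions in each mouse on each day. For Pdgfc in myeloid-like nuclei the pairs were 187 and 189, 663 and 491, and 50.5 and 97.9 CPM at 7 dpi, and 321 and 231, 501 and 699.9, and 289.8 and 269 CPM at 21 dpi, so both ADWA11 mice were above both Ctrl mice. Pdgfd in fibroblast-like nuclei was at 174 and 185, 219.9 and 245, and 321 and 294 CPM at 7 dpi and at 403 and 347, 379 and 445, and 826 and 707 CPM at 21 dpi. Both Tgfbr2-cKO mice were above both Ctrl mice on each day, while the ADWA11 and Ctrl mice overlapped at 21 dpi.

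**Figure D5:**
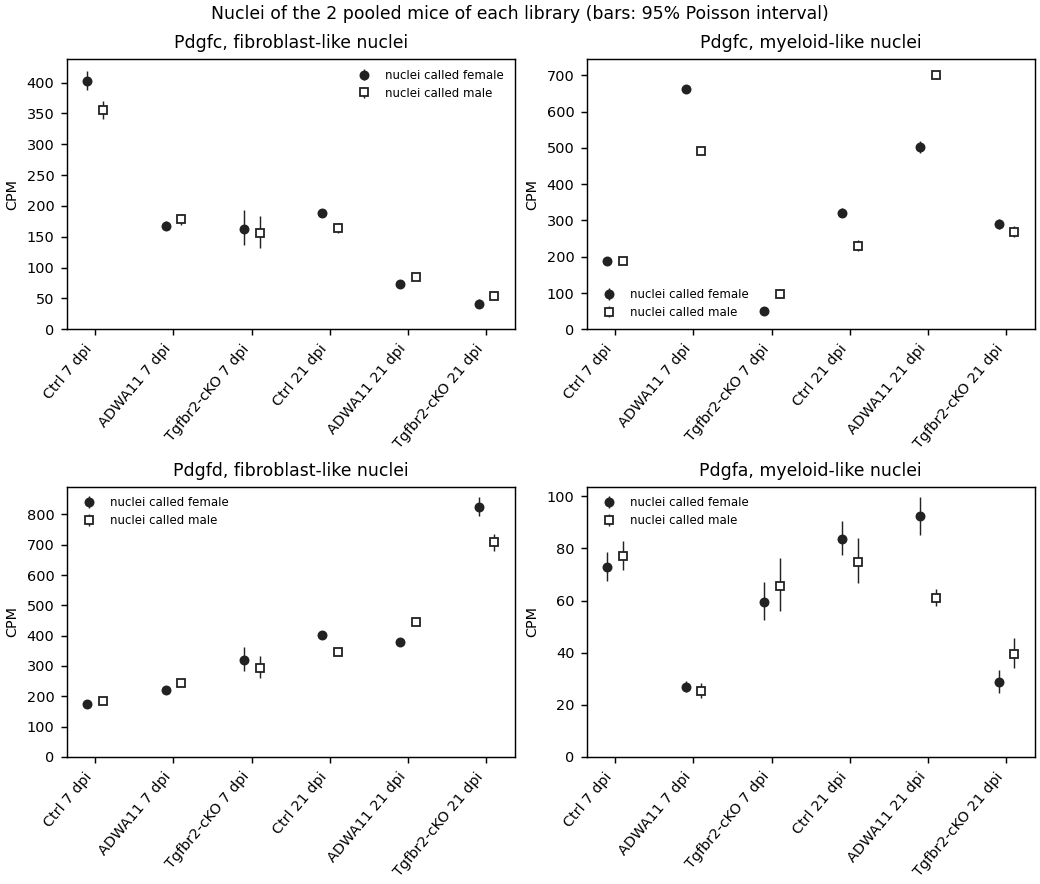
Levels (CPM, axes from 0) in nuclei called female (filled circles) and male (open squares) of each library, with 95% Poisson intervals, for Pdgfc in fibroblast-like and myeloid-like, Pdgfd in fibroblast-like and Pdgfa in myeloid-like nuclei. The 2 mice of a library lie closer to each other than Ctrl lies to ADWA11 for Pdgfc in both classes at 7 dpi, and the Pdgfd points of ADWA11 and Ctrl overlap at 21 dpi.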

How the data were processed

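Nuclei of dissected lesions were sorted and sequenced by droplet single-nucleus RNA-seq (10x 3′ v3.1), with 1 library per group and 2 pooled mice per library. The deposited matrices hold whole-number UMI counts per gene and nucleus, made by the authors with Cell Ranger (7.2.0 per the file headers, 7.1.0 in the submitters' processing notes) on mm10. Here, nuclei in the outer 2.5 percentiles of UMIs or genes, or the top 2.5 of mitochondrial share, were removed per library, after the methods. A nucleus was called female or male from Xist and Y-linked UMIs, one without the other. SCTransform (Seurat 5.3.0, sctransform 0.4.2, R 4.3.3) used 3000 variable genes without the 6 members, 30 components and resolutions of 0.5, 0.2 (fibroblast) and 0.25 (myeloid, precursor). Clusters were named from at least 3 raised markers. Sub-clusters with over 50% called doublets (scanpy 1.11.5) were left out, 1063 nuclei. UMIs were summed per class and library, with exact intervals from scipy 1.17.1 in Python 3.11.15. Mitochondrial UMIs were left out of totals. Folds used genes with at least 20 UMIs over both libraries, without p-values. Precision follows the UMIs behind each value, and 0 counts were bounded at 3 counts. edgeR 4.0.16 gave TMM factors for an alternative only. Named genes were the members, pathway genes past 2-fold (1 is counted but not reported here by name) and the 3 closest genes per member. The members and lists were chosen with earlier results of these data known, and the naming of precursor, arachnoid-like and leptomeningeal-like sub-clusters was settled after clusters were seen. The code for ratios and their intervals was tested on simulated Poisson counts, which hold counting error only.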

Additional observations from a re-analysis of the deposited data

Results flagged for a closer look

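In 15 comparisons a pair of log2 ratios ran in opposite directions with intervals that did not include 0. Each difference between the 2 ratios is given below, and none of them was tested. Each group had 1 library.

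For Pdgfc, the ratio of ADWA11 to Ctrl was -1.12 in fibroblast-like and 1.68 in myeloid-like nuclei at 7 dpi, a difference of 2.79, and -1.14 and 1.18 at 21 dpi, a difference of 2.32. Mural-like nuclei gave -0.80 at 7 dpi and 0.68 at 21 dpi, a difference of 1.48 between days. That is -2.47 from myeloid-like nuclei at 7 dpi and 1.81 from fibroblast-like nuclei at 21 dpi. The mural-like ratio at 7 dpi rested on few nuclei, since 5 held 71.2% of the Pdgfc UMIs in Ctrl and 5 held 66.0% in ADWA11.

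For Pdgfa, the ratio of 21 to 7 dpi in fibroblast-like nuclei differed by 1.51 between Ctrl (-0.71) and ADWA11 (0.80), and in myeloid-like nuclei by -0.93 between Ctrl (0.17) and Tgfbr2-cKO (-0.76). The ratio of ADWA11 to Ctrl in mural-like nuclei was -0.52 at 7 dpi and 0.61 at 21 dpi, a difference of 1.13, and the 21 dpi value differed by 0.86 from that of myeloid-like nuclei (-0.25). The myeloid-like value was higher with ADWA11 in 6 of 9 sub-clusters and 0.61 when weighted to the makeup of Ctrl.

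For Pdgfb in myeloid-like nuclei, the ratio of Tgfbr2-cKO to Ctrl was 0.13 at 7 dpi and -0.60 at 21 dpi. The ratio of 21 to 7 dpi was 0.50 in Ctrl and -0.24 in Tgfbr2-cKO. Both pairs differ by -0.74, since they use the same 4 libraries. Within sub-clusters at 7 dpi Tgfbr2-cKO was below Ctrl in 5 of 6, with a median of -0.29 and every interval including 0. The higher class level of that day was thus not shared by most sub-clusters. At 21 dpi it was below Ctrl in 5 of 6, with a median of -0.40 and 3 intervals below 0. Endothelial-like nuclei differed from myeloid-like nuclei by 1.05 for Tgfbr2-cKO at 21 dpi (0.45 and -0.60) and by 0.88 for ADWA11 at 7 dpi (0.29 and -0.58).

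For Pdgfrb, the ratio of 21 to 7 dpi in mural-like nuclei was 0.29 in Ctrl and -0.30 in ADWA11, a difference of -0.59. At 21 dpi the ratio of ADWA11 to Ctrl was 0.32 in fibroblast-like and -0.45 in mural-like nuclei, a difference of -0.77.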

How the results depend on the processing

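No paired analysis was possible because the groups compared had 1 library each and so shared fewer than 2 replicate numbers. Nuclei called female and nuclei called male, each leaving out the other mouse and nuclei without a call, were among the alternatives. They covered 98 ratios, those of 14 pairs of a member and a class, without Pdgfd in astrocyte-like nuclei, while Pdgfb in fibroblast-like nuclei entered only the counts of members and a step without myofibroblast-like nuclei, chosen after seeing the data. Of the 98, 22 passed 2-fold. Of these, 6 stayed past 2-fold in the same direction under every alternative that gave a value. Those alternatives were 11 each, except 6 and 9 for Pdgfc in mural-like nuclei of Tgfbr2-cKO at 7 and 21 dpi. An alternative that left 0 UMIs gave no value, and that 7 dpi ratio rested on few UMIs in 40 nuclei. The Pdgfc ratio of ADWA11 to Ctrl ranged from -1.26 to -0.58 at 7 dpi and from -1.38 to -0.68 at 21 dpi in fibroblast-like nuclei, and from 0.97 to 2.20 and from 0.40 to 1.60 in myeloid-like nuclei. The Pdgfa ratio ranged from -1.81 to -0.57 for Tgfbr2-cKO in fibroblast-like nuclei at 7 dpi and from -1.62 to -0.86 for ADWA11 in myeloid-like nuclei at 7 dpi. The Pdgfc ratio of Tgfbr2-cKO in fibroblast-like nuclei ranged from -1.53 to -1.07 and from -2.20 to -1.17. Of the 22, 1 reversed: Pdgfc in mural-like nuclei of Ctrl, 21 against 7 dpi, was -1.30 over all nuclei and 0.85 in nuclei called female. The cause was not tested.

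The number of members past 2-fold in fibroblast-like nuclei moved as follows. With percentiles taken over all libraries pooled it was 1 in place of 2 for Tgfbr2-cKO and for ADWA11 at 7 dpi, 0 in place of 2 for ADWA11 at 21 dpi, and 1 in place of 2 for 21 against 7 dpi in Ctrl. With log-normalised counts before clustering it was 1 for ADWA11 at 7 dpi, 0 at 21 dpi, 1 for 21 against 7 dpi in Ctrl and 0 in place of 1 in ADWA11. With the members kept among the variable genes it was 1 for ADWA11 at 21 dpi and 1 for 21 against 7 dpi in Ctrl. In nuclei called male it was 0 for ADWA11 at 21 dpi, 1 for 21 against 7 dpi in Ctrl and 2 in ADWA11. With the mean of CPM per nucleus it was 1 for Tgfbr2-cKO at 21 dpi. With sub-clusters weighted to Ctrl or 7 dpi it was 1 for ADWA11 at 21 dpi and 1 for 21 against 7 dpi in Ctrl and in Tgfbr2-cKO. With a low-UMI unnamed cluster counted as fibroblast-like it was 0 for ADWA11 at 21 dpi. These last 2 settings, and the one without a myeloid-like sub-cluster led by fibroblast genes, were chosen after seeing the data.

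Without a minimum of UMIs, 8485 of 22598 genes passed 2-fold in fibroblast-like nuclei for Tgfbr2-cKO at 7 dpi, against 2131 of 14968 with it. The counts were 8515 of 24478 against 3104 of 17210 at 21 dpi, 6374 of 24257 against 1702 of 16882 for ADWA11 at 7 dpi and 5951 of 24941 against 1472 of 17820 at 21 dpi. For 21 against 7 dpi they were 8604 of 24663 against 3639 of 17360 in Ctrl, 8324 of 24735 against 3606 of 17577 in ADWA11 and 7990 of 22079 against 2256 of 14288 in Tgfbr2-cKO. In myeloid-like nuclei 4098 of 24181 against 1211 of 16811 genes were at least 2-fold higher with ADWA11 at 7 dpi, and 3564 of 23589 against 834 of 16178 at 21 dpi. The members' counts did not move.

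Thinned to 2000 UMIs per nucleus, the median share of nuclei with a UMI was 29.0% in place of 52.0% for Pdgfb in endothelial-like nuclei, 64.9% in place of 74.0% for Pdgfd there, 64.0% in place of 77.5% for Pdgfra in OPC-like nuclei and 77.3% in place of 87.0% for Pdgfrb in mural-like nuclei. Shares of a gene's UMIs by class were also taken over all libraries together, without neural classes other than OPC-like. In myeloid-like nuclei they were 70.6% in place of 53.6% for Pdgfa, 73.3% in place of 63.8% for Pdgfb and 70.2% in place of 63.1% for Pdgfc. In fibroblast-like nuclei they were 69.7% in place of 64.5% for Pdgfd, 77.7% in place of 75.2% for Pdgfra and 77.8% in place of 74.4% for Pdgfrb. Mural-like values rested on 40 to 154 nuclei, OPC-like values at 21 dpi on 20 to 83 and endothelial-like values of Tgfbr2-cKO at 7 dpi on 37, so counting error limits them.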

Other observations

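An unnamed cluster led by bone matrix genes such as Ibsp, Bglap and Sp7 held Pdgfd at 240.2 CPM in Ctrl and 722 CPM in ADWA11 at 7 dpi, and at 1248 and 980.2 CPM at 21 dpi, in 57 to 327 nuclei per library. The Tgfbr2-cKO libraries held 2 nuclei each of this cluster.

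A myeloid-like sub-cluster of 30 nuclei led by Calcr, Mmp9 and Oscar, genes of osteoclasts, held Pdgfa at 1060 CPM in Ctrl at 7 dpi, on 91 UMIs in 10 nuclei, against 72.5 CPM in all myeloid-like nuclei of that library. The 2 ADWA11 libraries gave 44.3 and 44.1 CPM in 4 and 8 nuclei. The sub-cluster is too small for a comparison between conditions.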
